A study of Mus musculus with 6 samples.

Results

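The enzymes described here remove superoxide and hydrogen peroxide: the superoxide dismutases Sod1, Sod2 and Sod3, catalase (Cat), the glutathione peroxidases Gpx1 and Gpx3, and the peroxiredoxins Prdx1, Prdx3, Prdx5 and Prdx6. These 10 genes were taken by symbol from a deposited table of 13026 genes, and all 10 passed the filter on low values that left 12836 genes for testing. RNA of whole kidney was measured in 6 libraries, 3 from adult male mice without LIGHT (LIGHT-/-, called LIGHT knockout here) and 3 from adult males with it (LIGHT+/+, wild type), all on a C57BL/6 J background. LIGHT, the product of Tnfsf14, is a TNF family cytokine. Both groups had the blood flow of both kidneys interrupted for 32 min and then restored for 24 h, so every kidney was injured, and unoperated kidneys are not analysed here. The sources used here do not give how the allele was made. Tnfsf14 is not analysed here, so its level gave no check of the genotypes.

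Superoxide leaks from the respiratory chain and is made by NADPH oxidases. Superoxide dismutases convert it to hydrogen peroxide, which catalase, glutathione peroxidases and peroxiredoxins then reduce to water. Each compartment has its own set: Sod2, Prdx3 and Prdx5 work in mitochondria, Sod1, Gpx1, Prdx1 and Prdx6 mainly in the cytosol, Cat in peroxisomes, and Sod3 and Gpx3 are secreted. Return of oxygen after ischemia is known to raise the production of these oxidants in the proximal tubule, a segment rich in mitochondria and peroxisomes.

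Values are FPKM, fragment counts scaled to transcript length and library size, which allow levels to be compared between genes but carry no read depth. The FPKM of a library summed to 299667 to 318493, of which mitochondrially encoded genes held 12.7 to 15.2%. Across the genes tested, knockout library 3 had correlations of 0.934 to 0.956 with the other libraries, against 0.976 to 0.989 among the other 5. The same library stood at 1795 FPKM for the summed level of 10 tubular injury markers, against 6263 and 5094 FPKM in the other knockout libraries and 6057 to 6733 FPKM in wild type. Its 14 proximal tubule markers summed to 7190 FPKM, against 5530 and 5611 FPKM in the other knockout libraries and 5099 to 5796 FPKM in wild type. In the same library, 7 neutrophil markers summed to 20.9 FPKM, against 45.8 and 67.3 FPKM in the other knockout libraries and 63.9 to 97.2 FPKM in wild type. Its 8 collecting duct markers summed to 474 FPKM, against 110 and 166 FPKM in the other knockout libraries and 121 to 192 FPKM in wild type. In the injury, proximal tubule and collecting duct sums of this library, 1 gene weighed most, Spp1 at 1322, Kap at 4114 and Aqp2 at 325 FPKM. Krt18 and Vcam1 of the injury list were not lowest there, and Atp6v1g3 of the collecting duct list was not highest. The other genes of both lists were. The fat cell gene Cfd stood at 63.6 FPKM in knockout library 3 and at 0.00 to 0.15 FPKM in the others. In whole tissue, a smaller number of cells of a type and less RNA per cell cannot be told apart.

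No member passed the test between genotypes. In a limma fit on log2(FPKM + 1) over all 12836 genes, 0 of 10 members had a Benjamini-Hochberg adjusted p under 0.05, where 0.117% of all genes did, 0.0234% being higher and 0.0935% lower in the knockout. At an unadjusted limma p under 0.05 the count was also 0 of 10, against 8.08% of all genes. Sod2, Prdx3, Cat and Sod3 were nevertheless higher in each of the 3 knockout libraries than in any wild type library, and Prdx6 was lower in each. Such separation of the groups was seen in 16.6% of all genes, with the knockout higher in 7.76% and lower in 8.8%. By fitted difference, 6 members were higher and 4 lower in the knockout, where 47.9% of all genes were higher. Their median log2 fold change was 0.13, against -0.01 over all genes tested. Without wild type library 3 it was 0.07, against 0.01 over all genes tested.

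**Figure D1:**
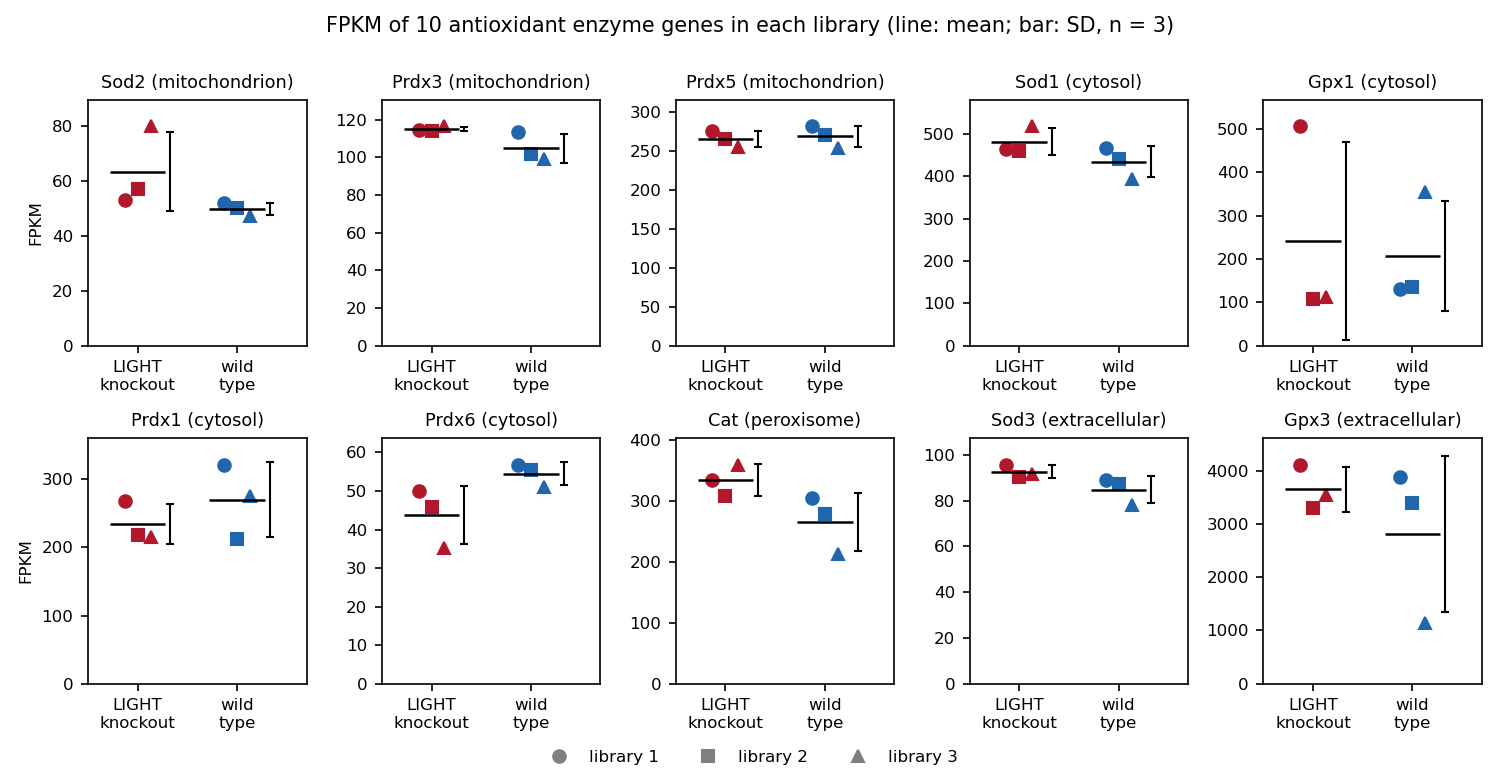
FPKM of each gene (vertical axes from 0) in the LIGHT knockout and wild type libraries, with 1 symbol per library number, the group mean as a line and the SD as a bar (n = 3 each). Sod2, Prdx3, Cat and Sod3 separate the genotypes upward and Prdx6 downward, Gpx1 splits within both genotypes, and wild type library 3 is low for Gpx3.

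In mitochondria, Sod2, the manganese enzyme of the matrix, and Prdx3, the peroxiredoxin found only there, were higher in the knockout by small amounts, while Prdx5 overlapped between genotypes. Sod2 stood at 53.2, 57.0 and 79.8 FPKM in the knockout libraries and at 51.9, 50.1 and 47.4 FPKM in wild type libraries. The groups were separate, but the lowest knockout value and the highest wild type value lay close together and knockout library 3 was far above the rest. The fitted fold was 1.25, a log2 fold change of 0.32 with a 95% interval of -0.06 to 0.70 (limma adjusted p = 0.598). Without knockout library 3 the log2 fold change of Sod2 was 0.14. The low injury and neutrophil markers and the high proximal tubule, collecting duct and fat cell markers of that library go with its high Sod2. Of 14 proximal tubule markers, 9 were higher in every knockout library and 0 lower in every one, against 7.76% and 8.8% of all genes. Their summed levels were 5530 to 7190 FPKM in the knockout and 5099 to 5796 FPKM in wild type. Kap, 1 of the 2 markers lower by fitted difference, held most of each sum, at 3717 to 4207 FPKM. The part of these markers in the differences of Sod2 and of the other members was not tested. Sod2 (ENSMUSG00000006818.4) lies on chromosome 17 (13006846 to 13040063, plus strand, mm10), the chromosome of Tnfsf14, with 44.2 Mb between their starts.

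The promoter of Sod2 is shown because, of the members with separate groups, this gene had the library farthest above the wild type mean. The stretch, chr17:13007686-13007805 on the plus strand (RefSeq, GRCm38.p6), runs from -153 to -34 relative to the RefSeq start, which lies within the gene span given above, with each GC box (GGGCGG, either strand) in capitals. It holds 4 GC boxes. At least 1 was present in 56.5% of the promoters of the genes tested and in 7 of the 8 members with a promoter sequence.
Sod2: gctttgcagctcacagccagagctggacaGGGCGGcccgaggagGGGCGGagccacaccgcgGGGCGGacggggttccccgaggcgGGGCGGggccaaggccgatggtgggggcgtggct

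Prdx3, which reduces peroxide in the matrix with electrons from thioredoxin, stood at 114.7, 114.1 and 116.4 FPKM in the knockout libraries and at 113.4, 101.9 and 98.9 FPKM in wild type libraries. The knockout libraries were nearly equal, and the gap to wild type library 1 was smaller than the spread within the knockout. Its log2 fold change was 0.14, with a 95% interval of -0.08 to 0.35 (limma adjusted p = 0.654). Both other mitochondrial members lie on chromosome 19, minus strand, Prdx3 (ENSMUSG00000024997.7) at 60864051 to 60874556 and Prdx5 (ENSMUSG00000024953.16) at 6906697 to 6910106. Prdx5, an enzyme also found in peroxisomes and cytosol, stood at 276, 266 and 255 FPKM in the knockout libraries and at 282, 271 and 255 FPKM in wild type libraries. The groups overlapped almost completely. The interval of its log2 fold change, -0.23 to 0.20 around -0.02, was among the narrowest of the members (limma adjusted p = 0.96). The coefficient of variation of Prdx5 over all 6 libraries was 4.17%, against a median of 15.2% over all genes tested. The first 409 bases of Prdx5 overlap Trmt112 on the opposite strand, which stood at 25.05, 33.4 and 25.8 FPKM in the knockout libraries and 26.1, 22.2 and 22.6 FPKM in wild type libraries.

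In the cytosol the members differed among themselves, with Prdx6 lower in every knockout library, Sod1 and Prdx1 overlapping between genotypes and Gpx1 split within both. Sod1, the copper and zinc enzyme and the second most abundant member, stood at 466, 460 and 518 FPKM in the knockout libraries and at 468, 442 and 395 FPKM in wild type libraries. Knockout library 3 was highest and wild type library 3 lowest, while the other 4 libraries lay between 442 and 468 FPKM. Its log2 fold change was 0.15, with a 95% interval of -0.11 to 0.41 (limma adjusted p = 0.683). Without knockout library 3 it was 0.09, without wild type library 3 it was 0.08 and without both it was 0.03. Sod1 (ENSMUSG00000022982.9; chromosome 16, 90220754 to 90226329, plus strand) shares 650 bases at its end with Scaf4 on the opposite strand, which was at 9.27 to 10.4 FPKM in all libraries.

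Gpx1, the selenium enzyme that uses glutathione to reduce hydrogen peroxide in cytosol and mitochondria, had 2 levels that did not follow genotype. It stood at 506, 108 and 111 FPKM in the knockout libraries and at 131, 136 and 354 FPKM in wild type libraries. Knockout library 1 and wild type library 3 were each more than 2 times any of the other 4. The group means, 242 ± 229 FPKM in the knockout and 207 ± 127 FPKM in wild type (SD, n = 3 each), therefore describe no library well, and the interval of the log2 fold change was -1.63 to 1.6 around -0.02 (limma adjusted p = 0.996). Among the 451 genes tested with a mean of at least 100 FPKM, Gpx1 was the 1 gene with this split, and among all 12836 there were 5, a count made after its values were seen. Gpx1 (ENSMUSG00000063856.7) lies on chromosome 9 at 108338903 to 108340343, plus strand. No transcript word of 31 bases in it occurs in another annotated gene, and no other annotated gene overlaps it.

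Prdx1, the main cytosolic peroxiredoxin, stood at 268, 218 and 215 FPKM in the knockout libraries and at 321, 211 and 275 FPKM in wild type libraries. Both genotypes ranged widely and overlapped. Its log2 fold change was -0.19, with a 95% interval of -0.61 to 0.23 (limma adjusted p = 0.734). It was -0.05 without wild type library 1 and -0.35 without wild type library 2. The gene (ENSMUSG00000028691.12) lies on chromosome 4 at 116685544 to 116700822, plus strand. Prdx1 is a known target of the oxidant-sensing factor NRF2, which binds the antioxidant response element, and its promoter is shown for that site. The stretch, chr4:116685420-116685519 on the plus strand (RefSeq, GRCm38.p6), runs from -179 to -80 relative to the RefSeq start, which lies downstream of the GENCODE start given here, with the element core (TGACNNNGC, here on the minus strand) in capitals.
Prdx1: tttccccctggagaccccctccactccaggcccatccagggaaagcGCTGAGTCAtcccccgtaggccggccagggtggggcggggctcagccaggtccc

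The core was found in the 250 bases before the start in 2 of the 8 members with a sequence, Prdx1 and Sod1, and in 11.7% of the promoters of the genes tested. The match is a description of these letters and not evidence of binding.

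Prdx6, which has a single reactive cysteine, uses glutathione and repairs oxidised phospholipids, was the 1 member lower in every knockout library. It stood at 50.0, 45.9 and 35.3 FPKM in the knockout libraries and at 56.9, 55.5 and 51.2 FPKM in wild type libraries. The highest knockout value lay just under the lowest wild type value, and knockout library 3 was lowest of all. The fitted fold was 0.798, a log2 fold change of -0.33 with a 95% interval of -0.66 to 0.01 (limma adjusted p = 0.592). Without knockout library 3 it was -0.18. Prdx6 (ENSMUSG00000026701.15; chromosome 1, 161240112 to 161251219, minus strand) had the smallest unadjusted limma p among the members, 0.0561.

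In peroxisomes, Cat was higher in every knockout library. Catalase breaks down the hydrogen peroxide that peroxisomal oxidases release, and the proximal tubule holds much of it. Cat stood at 334, 308 and 360 FPKM in the knockout libraries and at 305, 279 and 213 FPKM in wild type libraries. Cat (ENSMUSG00000027187.10) lies on chromosome 2 at 103453849 to 103485160, minus strand. The groups were separate by a narrow gap, with wild type library 3 well below the others. The fitted fold was 1.27, a log2 fold change of 0.34 with a 95% interval of -0.03 to 0.71 (limma adjusted p = 0.595). Leaving out knockout library 3 gave 0.29, leaving out wild type library 3 gave 0.19 and leaving out both gave 0.13. The 8 markers of smooth muscle and fibroblasts summed to 194 to 231 FPKM in the knockout libraries and to 222, 308 and 468 FPKM in wild type libraries, and the 12 of monocytes and macrophages to 139 to 169 FPKM in the knockout libraries and to 156, 176 and 273 FPKM in wild type libraries. Wild type library 3 was thus highest for both sums. The genes of highest level weigh most in them, with Tagln at 215, Acta2 at 138 and Lyz2 at 115 FPKM in that library. Some other genes of both lists, such as Dcn and Mrc1, were highest in knockout library 3 instead. The part of these cell types in the low Cat of wild type library 3 was not tested.

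The promoter of Cat is shown as that of the peroxisomal member, and its CCAAT boxes (CCAAT, either strand) are in capitals. The stretch, chr2:103485161-103485280 on the minus strand (RefSeq, GRCm38.p6), runs from -127 to -8 relative to the RefSeq start, which lies just within the gene span given above, and holds 3 of the 4 such boxes in the 250 bases before it. At least 1 CCAAT box was present in 34.7% of the promoters of the genes tested and in 4 of the 8 members with a sequence.
Cat: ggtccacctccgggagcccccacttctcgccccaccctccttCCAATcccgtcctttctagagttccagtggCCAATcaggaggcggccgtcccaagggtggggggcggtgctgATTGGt

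Outside the cell, Sod3, which binds to matrix and vessel walls, was higher in every knockout library by a small amount, and Gpx3, the peroxidase that the proximal tubule secretes into plasma, had a difference that rested on 1 library. Sod3 stood at 95.8, 90.4 and 91.6 FPKM in the knockout libraries and at 89.0, 87.4 and 77.9 FPKM in wild type libraries. Sod3 (ENSMUSG00000072941.5) lies on chromosome 5 at 52363791 to 52371418, plus strand. The groups were separate by a gap smaller than the spread within either. Its log2 fold change was 0.13, with a 95% interval of -0.09 to 0.34 (limma adjusted p = 0.67), and 0.07 without wild type library 3.

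Gpx3 was by far the most abundant member and ranked 11 among all genes of the table. It stood at 4113, 3298 and 3532 FPKM in the knockout libraries and at 3888, 3397 and 1144 FPKM in wild type libraries. Gpx3 (ENSMUSG00000018339.11) lies on chromosome 11 at 54902453 to 54910377, plus strand. Wild type library 3 was far below every other, and the ranges of the remaining 5 overlapped between genotypes. The log2 fold change was 0.55, with a 95% interval of -0.52 to 1.63 (limma adjusted p = 0.705), and -0.00091 without wild type library 3. Among the 451 genes tested with a mean of at least 100 FPKM, Gpx3 was the 1 gene for which that library stood at no more than 0.5 times every other, and 46 of all 12836 genes did so, a count made after its values were seen. The same library is 1 of the 2 with a high Gpx1, and it had the lowest summed level of proximal tubule markers, 5099 FPKM.

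**Figure D2:**
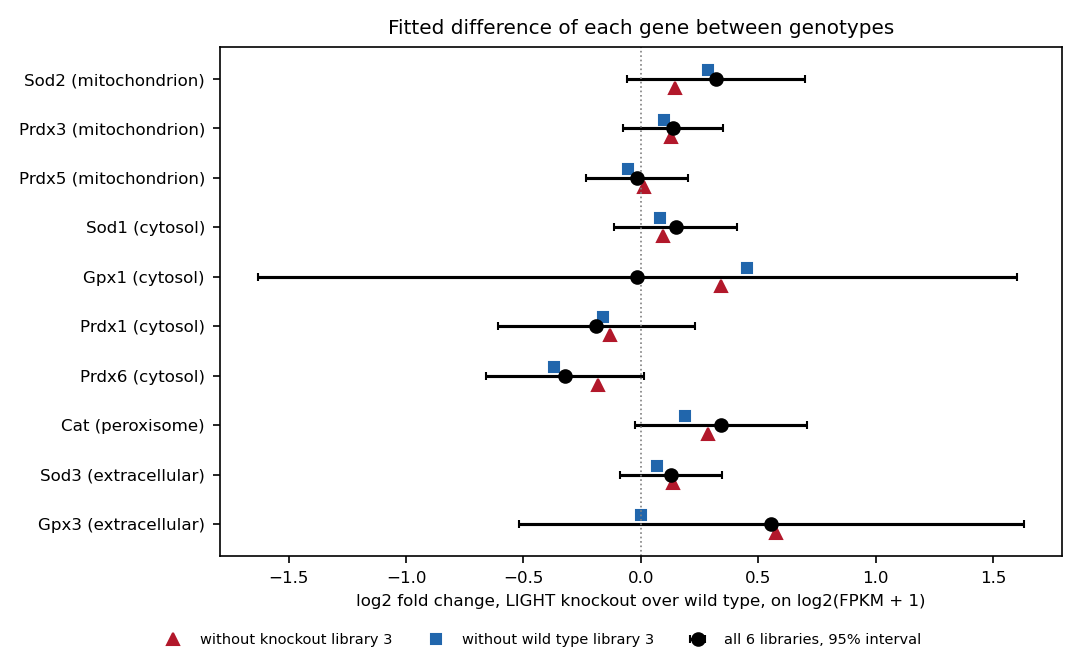
Log2 fold change of each gene, LIGHT knockout over wild type on log2(FPKM + 1), with its 95% interval in all 6 libraries (black) and the value without knockout library 3 (red triangles) or without wild type library 3 (blue squares). All 10 intervals include 0, the widest are those of Gpx1 and Gpx3, and the Gpx3 difference is at 0 without wild type library 3.

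The members are abundant genes in this tissue. Their 10 FPKM values summed to 6277, 4966 and 5315 in the knockout libraries and to 5706, 5033 and 2911 in wild type libraries, and Gpx3 alone held 65.5 to 66.5% of that sum in the knockout and 39.3 to 68.1% in wild type. Every member had a mean level above that of at least 91.66% of the genes tested. By mean level the order was Gpx3, Sod1, Cat, Prdx5, Prdx1, Gpx1, Prdx3, Sod3, Sod2 and Prdx6. Gpx3 lay above Sod1, Sod1 above Cat, and Prdx3 above Sod3 with no overlap between their ranges over the 6 libraries. Sod3 was above Sod2 in all 6 libraries, although the ranges overlapped. Cat, Prdx5, Prdx1 and Gpx1 overlapped as neighbours and changed places between libraries, as did Gpx1 with Prdx3 and Sod2 with Prdx6.

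By compartment, the summed FPKM of the 3 mitochondrial members was 437 to 451 in the knockout and 401 to 447 in wild type. The 4 cytosolic members summed to 833 to 1290 FPKM in the knockout and 845 to 1075 FPKM in wild type, and the 2 secreted members to 3388 to 4209 FPKM in the knockout and 1222 to 3977 FPKM in wild type. All 3 of these sums overlapped between genotypes. Ratios of members within a library, which do not depend on how that library was scaled, separated the genotypes for 2 of the 7 pairs examined. The ratio of Cat to Sod1 was 0.717, 0.668 and 0.695 in the knockout libraries and 0.652, 0.631 and 0.539 in wild type libraries. The ratio of Cat to Prdx5, both of which reach peroxisomes, was 1.21, 1.16 and 1.41 in the knockout libraries and 1.08, 1.03 and 0.836 in wild type libraries. In both pairs the peroxisomal catalase was thus the higher relative to its partner in each knockout library. Both pairs share Cat, whose own groups were separate, so they are not independent observations. No share over other pairs of genes was computed to compare with this count. The ratio of Prdx3 to Sod2, peroxide remover against peroxide maker in the matrix, was 2.16, 2.00 and 1.46 in the knockout libraries and 2.19, 2.04 and 2.09 in wild type libraries, with knockout library 3 alone outside a narrow range. The ratios Sod2 to Sod1, Gpx3 to Gpx1, Gpx3 to Sod3 and Prdx6 to Prdx1 overlapped between genotypes. No test was made of these ratios.

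**Figure D3:**
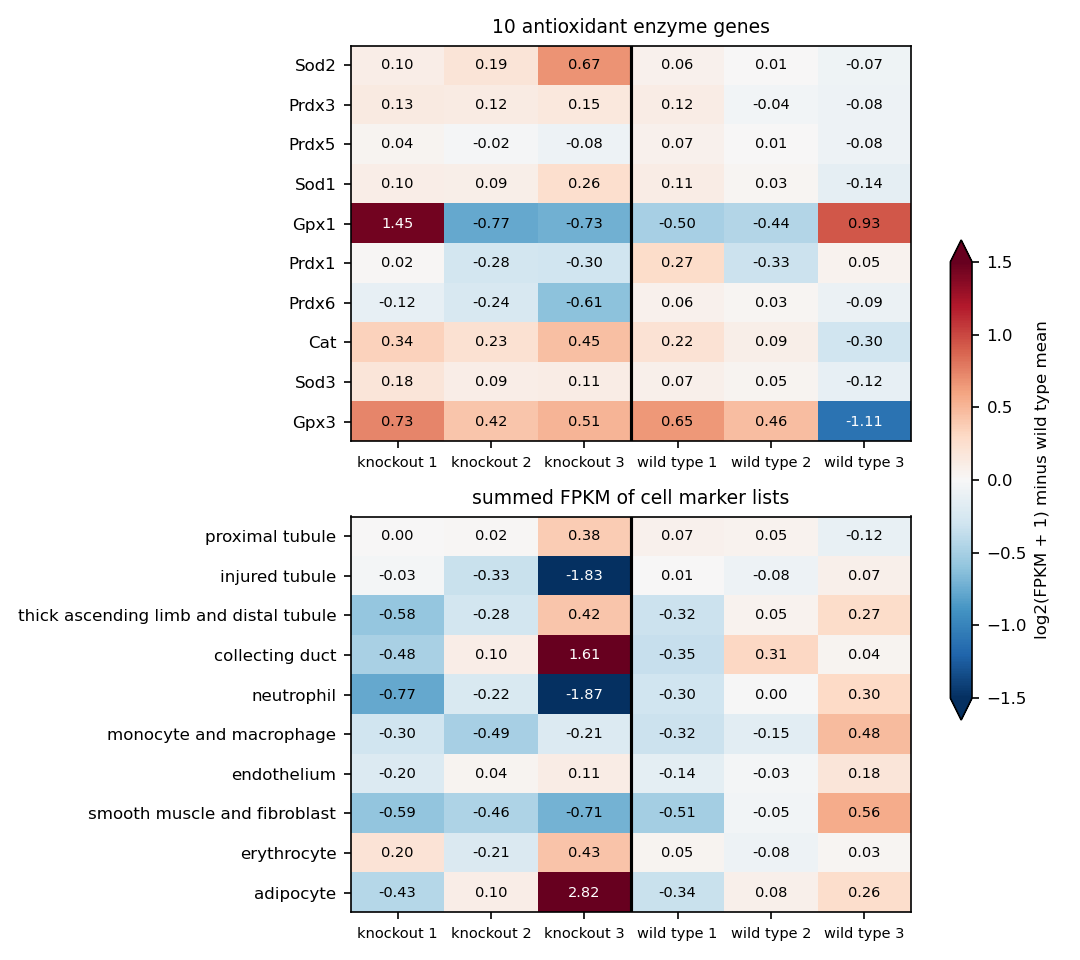
Each cell gives log2(FPKM + 1) of a library minus the wild type mean, for the 10 genes (upper panel) and for the summed FPKM of 10 lists of cell markers (lower panel), with the knockout libraries left of the line. Knockout library 3 is high for Sod2, at 0.67, and low for Prdx6, at -0.61, beside -1.83 for injured tubule markers, and wild type library 3 is at -1.11 for Gpx3.

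Of 9 other genes of these families, 7 were in the table and 0 passed the test, against 0.117% of all genes. The groups overlapped in 6 and were separate in 1, where 16.6% of all genes were separate. Ccs, the copper chaperone that loads Sod1, was the 1 gene among them with separate groups. It stood at 50.9, 61.0 and 73.7 FPKM in the knockout libraries and at 49.0, 48.3 and 40.6 FPKM in wild type libraries, a log2 fold change of 0.41 with a 95% interval of 0.04 to 0.78 (limma adjusted p = 0.592) and of 0.28 without knockout library 3. Gpx4, which protects membrane lipids from peroxidation, averaged 282 ± 24.7 FPKM in the knockout and 265 ± 24.6 FPKM in wild type (SD, n = 3 each). Prdx2, abundant in red cells, averaged 45.2 ± 3.14 FPKM in the knockout and 43.6 ± 1.80 FPKM in wild type. Prdx4, of the secretory pathway, averaged 7.56 ± 0.522 FPKM in the knockout and 8.0 ± 1.55 FPKM in wild type. Gpx8 and Gpx7, both of the endoplasmic reticulum, averaged 21.5 ± 1.90 and 2.83 ± 0.587 FPKM in the knockout against 23.4 ± 5.04 and 3.25 ± 0.514 FPKM in wild type. Gpx6 stood at 12.8 FPKM in knockout library 3 and at 4.05 to 7.64 FPKM in the other libraries.

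Of 21 genes of the thioredoxin and glutathione systems, which return reducing power to the peroxidases, 15 were lower and 6 higher by fitted difference. Over all genes tested, 47.9% were higher. The median log2 fold change of the 21 genes was -0.10, and 0 passed the test, against 0.117% of all genes. An unadjusted limma p under 0.05 was found for 3 of the 21, against 8.08% of all genes. The groups were separate in 4 of them, Txnrd3, Glrx, Gsr and Glrx3, all lower in the knockout, as were 8.8% of all genes. Txnrd3, a thioredoxin and glutathione reductase, stood at 3.16, 9.79 and 9.13 FPKM in the knockout libraries and at 19.3, 19.4 and 17.0 FPKM in wild type libraries, a log2 fold change of -1.35 with a 95% interval of -2.20 to -0.50 (limma adjusted p = 0.592). Its groups were far apart, and the value without knockout library 3 was -1.55. Gsr, which regenerates glutathione, stood at 113, 95 and 63.2 FPKM in the knockout libraries and at 121, 142 and 115 FPKM in wild type libraries, with a gap of little width. Glrx, a glutaredoxin that removes glutathione from proteins, averaged 23.0 ± 2.51 FPKM in the knockout and 33.6 ± 6.99 FPKM in wild type (SD, n = 3 each).

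Srxn1, the sulfiredoxin that restores overoxidised peroxiredoxins, stood at 142, 88.7 and 36.7 FPKM in the knockout libraries and at 188, 252 and 135 FPKM in wild type libraries. Knockout library 1 overlapped wild type library 3, and knockout library 3 was lowest. Its log2 fold change was -1.25, with a 95% interval of -2.41 to -0.09 (limma adjusted p = 0.592), and -0.72 without knockout library 3. The low injury and neutrophil markers and the high collecting duct and fat cell markers of that library go with this value too, and their part was not tested.

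**Figure D4:**
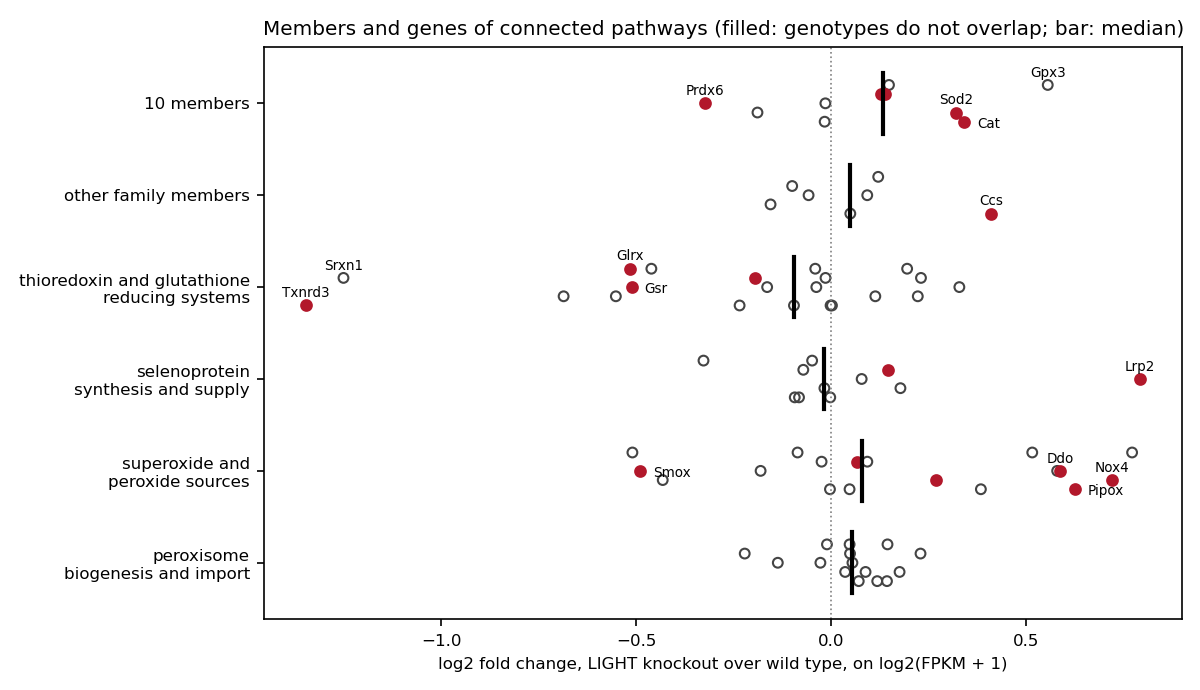
Log2 fold change, LIGHT knockout over wild type on log2(FPKM + 1), of the 10 members and of the tested genes of 5 connected lists, with the list median as a bar and filled points where the genotypes did not overlap. The members have a median of 0.13, and the filled points of the reducing systems lie below 0.

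On the side of oxidant production, the groups were separate in 6 of 18 tested genes, 5 of them higher in the knockout, where 16.6% of all genes were separate and 7.76% higher. The median log2 fold change was 0.08, with 11 higher and 7 lower by fitted difference, where 47.9% of all genes were higher. The test was passed by 0, against 0.117% of all genes, and 4 had an unadjusted limma p under 0.05, against 8.08%. Nox4, the NADPH oxidase of the proximal tubule, stood at 36.6, 44.5 and 61.1 FPKM in the knockout libraries and at 25.7, 34.9 and 23.8 FPKM in wild type libraries (limma adjusted p = 0.592). The groups lay close at knockout library 1 and wild type library 2. Ddo and Pipox are peroxisomal oxidases that release hydrogen peroxide. Ddo averaged 18.3 ± 1.59 FPKM in the knockout and 12.0 ± 1.98 FPKM in wild type. Its log2 fold change was 0.59, with a 95% interval of 0.27 to 0.90 (limma adjusted p = 0.592). Pipox averaged 67.5 ± 14.4 FPKM in the knockout and 43.3 ± 7.90 FPKM in wild type (SD, n = 3 each). Cyba, a subunit of NADPH oxidases, and Paox, which oxidises polyamines, were the other genes higher in every knockout library. Smox, which oxidises spermine, was lower in every one, at 2.54 ± 0.689 FPKM in the knockout and 3.93 ± 0.636 FPKM in wild type.

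Of 15 genes for peroxisome assembly, 11 were higher and 4 lower by fitted difference, where 47.9% of all genes were higher. The median log2 fold change of the 15 was 0.05. The groups were separate in 0 of them, against 16.6% of all genes, and 0 had an unadjusted limma p under 0.05, against 8.08% of all genes. Pex7, an import receptor, and Pex6 averaged 22.5 ± 2.73 and 14.2 ± 0.579 FPKM in the knockout and 19.0 ± 2.31 and 12.5 ± 1.66 FPKM in wild type (SD, n = 3 each). Pex14, a docking protein of import, averaged 6.65 ± 0.871 FPKM in the knockout and 7.41 ± 0.959 FPKM in wild type.

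Gpx1 and Gpx3 need selenium. Of 11 tested genes of selenoprotein synthesis and supply, 4 were higher and 7 lower by fitted difference, where 47.9% of all genes were higher. Their median log2 fold change was -0.02, and 0 passed the test, against 0.117% of all genes. The groups were separate in 2 of them, Lrp2 and Scly, both higher in the knockout, as were 7.76% of all genes. Lrp2, the receptor megalin that also takes up the selenium carrier in the proximal tubule, stood at 74.9, 96.2 and 157 FPKM in the knockout libraries and at 57.3, 68.8 and 54.3 FPKM in wild type libraries. It was higher in every knockout library and highest in knockout library 3, with a log2 fold change of 0.79 and a 95% interval of 0.16 to 1.42 (limma adjusted p = 0.592), and it is itself a proximal tubule marker. Without knockout library 3 the log2 fold change was 0.50. Scly, which frees selenium from selenocysteine, averaged 20.0 ± 0.185 FPKM in the knockout and 18.01 ± 1.24 FPKM in wild type (SD, n = 3 each). Lrp8, another receptor of the selenium carrier, averaged 0.771 ± 0.523 FPKM in the knockout and 1.19 ± 0.443 FPKM in wild type. Sephs2, which makes the selenium donor, averaged 111 ± 16.9 FPKM in the knockout and 98.5 ± 18.3 FPKM in wild type. It was at 77.6 FPKM in wild type library 3, the library with low Gpx3.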

How the data were processed

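The authors deposited FPKM per gene for 6 libraries, in 1 joint table whose values were identical to those of each library's own file. HISAT2, StringTie and mm10 appear by name, with no role given, in the submitters' processing notes. Versions, annotation and use of strand in counting are not given in the sources used here. Depth is unknown, so counting error cannot be told apart from other spread between libraries. Groups and numbers came from the sample titles. Since nothing ties each sample to a separate mouse, the p-values reflect sample-to-sample spread, which may be technical.

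The filter kept genes whose mean reached 0.5 FPKM. In every row of the table the higher group mean was at least 0.5 FPKM. LIGHT knockout and wild type were compared on log2(FPKM + 1) in limma 3.58.1 (R 4.3.3) with a mean-variance trend, two-sided, with Benjamini-Hochberg adjustment over 12836 genes and a threshold of 0.05. Fold changes on this scale understate those of low genes. An exact permutation test of 3 against 3 cannot go below 0.1. Positions and 31-base words came from GENCODE M21, built on the assembly of mm10. Of each member's words, at most 26.7% (Sod2) occur in other genes, and all 10 IDs matched without their version. Promoters from RefSeq were available for 8 members, and Sod3 and Prdx6 had none. The promoters were searched on both strands for the antioxidant response element core, GC box, CCAAT box, TATA box and NF-kB consensus. The TATA box was found in 3 of the 8, against 6.69% of the promoters of the genes tested. The NF-kB consensus was found in 4, against 8.96%, and is not marked in the printed stretches. These matches are not evidence of binding.

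The members and lists were chosen with earlier results of these data known. All members were named, with up to 4 genes of smallest p from each connected list, every gene of the other family members, and genes overlapping a member. A gene that this rule takes from the peroxisome list is not reported here. Glrx3, Cyba, Paox, Dcn, Mrc1, Krt18, Vcam1 and Atp6v1g3 were named after their values were seen.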

Additional observations from a re-analysis of the deposited data

How the results depend on the processing

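No member passed the threshold in any of 20 alternative fits. These gave 200 values for the 10 members, and the lowest limma adjusted p among them was 0.157. Sod1, Sod2, Sod3, Cat, Prdx1, Prdx3 and Prdx6 kept their direction in all 20. Gpx1 and Prdx5, both near 0, changed sign with equal FPKM totals (0.025 and 0.023), equal totals without mitochondrial genes (0.0049 and 0.0031) and quantile normalization (0.012 and 0.0039). Leaving out 1 library at a time moved Gpx1 between -0.75 and 0.45, Gpx3 between -0.00091 and 0.88 and Prdx5 between -0.056 and 0.017. Without both libraries numbered 3, chosen after seeing the data, Gpx1 was at 0.81, the members' median was 0.051 and 0 genes were called over the whole table. The members' median was 0.076 with library weights and 0.074 to 0.18 with 1 library left out. Over all genes tested the median was 0.020 with library weights and -0.025 to 0.012 with 1 library left out. It was 0.0084 over all genes without both libraries numbered 3. The whole-table count of 15 was 52 with library weights, 0 with the replicate number as a block, and 0 to 11 with 1 library left out. This count was 0 without knockout library 2, wild type library 1 or wild type library 3. Same-numbered libraries had deviations correlated at 0.15, -0.13 and -0.02. With 3 libraries per group, these values cannot show whether equal numbers mark paired samples. The block changed no member's call. The cause of these shifts was not tested. Differences between genotypes in the log2 ratios held their sign without any 1 library for Sod2 to Sod1, Prdx3 to Sod2, Cat to Sod1 and Cat to Prdx5, and did not for the other 3 pairs. Without knockout library 3, however, Prdx3 to Sod2 went from -0.187 to -0.017 and Sod2 to Sod1 from 0.177 to 0.053. Without wild type library 3, Cat to Sod1 went from 0.194 to 0.110 and Cat to Prdx5 from 0.360 to 0.247. FPKM without depth limits what can be said of the spread within a library.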
